A study of Mus musculus with 7 samples.

Results

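The genes of 7 inhibitors of cyclin-dependent kinases (CDKs) and 3 genes of the p53 axis were followed in tumors grown from mouse embryonic fibroblasts (MEFs) without nuclear myosin 1 (NM1) and in tumors grown from the same cells with NM1 put back. They were chosen by name, as the Ensembl genes whose symbol in the GENCODE M21 annotation is Cdkn1a, Cdkn1b, Cdkn1c, Cdkn2a, Cdkn2b, Cdkn2c, Cdkn2d, Trp53, Mdm2 or Ccng1, and each symbol matched 1 of the 46603 genes in the count files. All 10 passed the filter on low counts that left 16887 genes for the test. Of the 10 genes, 6 were higher in the KO tumor pieces (Trp53, Mdm2, Ccng1, Cdkn1a, Cdkn2a and Cdkn2b), 3 were lower (Cdkn1b, Cdkn1c and Cdkn2c), and Cdkn2d did not pass the test, which called a gene at an adjusted p under 0.05. Of all 16887 genes tested, 25.7% were higher and 24.5% were lower in KO by the same call. With a change of at least 2-fold as well, 4 of the 10 genes were higher (Trp53, Cdkn1a, Cdkn2a and Cdkn2b) and 2 were lower (Cdkn1c and Cdkn2c), against 17.1% and 20.3% of all genes tested.

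NM1 is a nuclear isoform made from the Myo1c gene. The KO line was made from MEFs (ATCC CRL-2752) by removing NM1 with the CRISPR/Cas9 system, and the KO+NM1 line is this KO line carrying a lentiviral copy of NM1 with HA and V5 tags, selected with Neomycin as single clones. Both groups therefore carry the deletion. Wild-type cells are not part of the comparison, since the study reports that no mouse injected with them formed a tumor. Cells were injected into female Balb/c nude mice aged 16 weeks, 5 per group. Tumors were taken on day 30 by the sample descriptions or somewhat earlier by the methods of the study. The site of injection was the flank by both of these and the mammary pad by the results of the study. Nude mice lack a thymus and mature T cells but keep B cells, macrophages and other host cells. RNA was sequenced from 3 pieces of KO tumor and 4 pieces of KO+NM1 tumor. The sample descriptions speak of 1 tumor per condition divided into 4 pieces, so n counts pieces, and the SD and the p-values measure the spread between pieces, which may hold no difference between mice.

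CDK inhibitors restrain the kinases that drive a cell from G1 into S phase. The CIP/KIP proteins p21, p27 and p57, encoded by Cdkn1a, Cdkn1b and Cdkn1c, bind cyclin-CDK complexes of several kinds, while the INK4 proteins p16, p15, p18 and p19, encoded by Cdkn2a to Cdkn2d, bind CDK4 and CDK6 and keep D-type cyclins away from them. Cdkn2a also encodes ARF, which holds back Mdm2, the ubiquitin ligase that marks p53 for degradation, and p53 in turn activates transcription of Cdkn1a, Mdm2 and Ccng1. These genes are known for arresting fibroblasts in culture, where Cdkn2a or Trp53 is often lost when a line becomes immortal.

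The libraries held 24088309 to 28326568 counts each, and 3 counts, taken as the detection floor, corresponded to between 0.0991 and 0.148 CPM, the counts scaled to a common library size after TMM normalization. Myo1c, the gene that encodes NM1, was at 303 ± 12.1 CPM in KO (SD, n = 3) and 408 ± 23.1 CPM in KO+NM1 (SD, n = 4), and its log2 fold change was -0.43 ± 0.13 (SE, adjusted p = 0.031, edgeR). Counts per gene sum over the isoforms and so do not measure NM1 alone. The pieces also differed in other cells. Of 12 skeletal muscle markers 12 were higher in KO, with a summed level of 2925 to 23720 CPM against 17.3 to 38.2 CPM, and the defining markers Myh1, Myh4 and Actn3 were each at 0 in at least 1 piece. Of 10 white adipocyte markers 10 were lower in KO, at a summed 137 to 325 CPM against 4966 to 36809 CPM. Macrophage markers were higher for 8 of 10 genes, at 3707 to 4251 CPM against 694 to 2589 CPM, and endothelial markers were lower for 10 of 10, at 243 to 281 CPM against 1273 to 1979 CPM. Of the fibroblast markers 5 of 12 were lower in KO, at 7870 to 14156 CPM against 3333 to 15394 CPM, and of the Schwann cell markers 6 of 8, at 50.9 to 58.2 CPM against 160 to 384 CPM. B and plasma cell markers summed to 6265 CPM in KO+NM1 piece 01 and to no more than 71.2 CPM in any other piece, and keratinocyte markers to 1245 CPM in KO piece 02 and to no more than 441 CPM elsewhere. For B and plasma cells 0 of 10 markers passed the test, and for keratinocytes 1 of the 5 tested did, with Dsg3 at 0 in every KO+NM1 piece. KO+NM1 piece 01 therefore stood apart from the other KO+NM1 pieces, and values without it are given beside some of the results that it moves. Mitochondrially encoded genes took 1.81% to 2.14% of the counts in KO and 5.11% to 18.5% in KO+NM1. In such bulk samples, fewer cells of a type and less RNA per cell cannot be told apart, and the part of other cell types in the results was not tested.

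**Figure D1:**
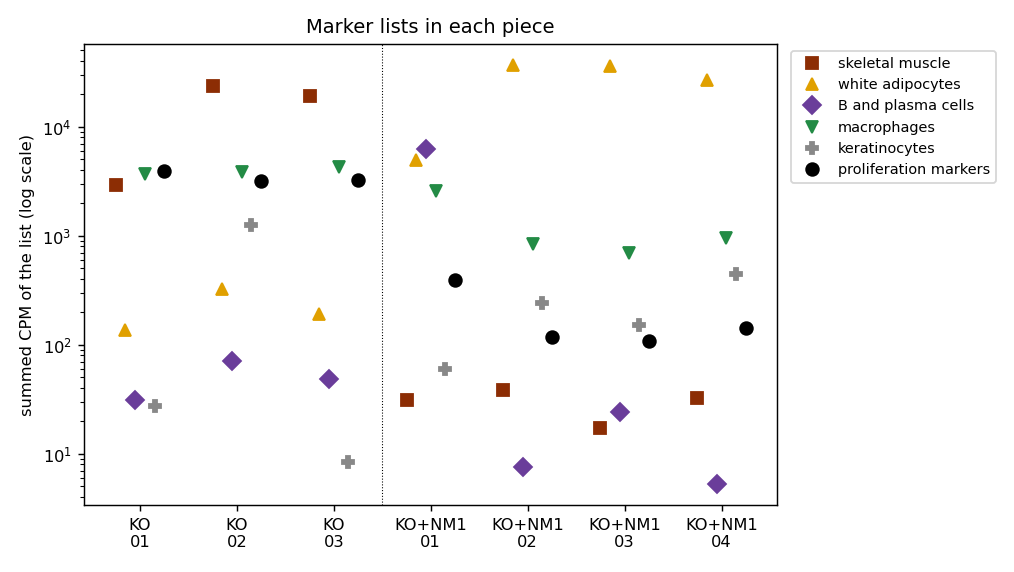
Summed level of 6 marker lists (CPM, log scale) in each of the 7 pieces, 1 symbol per list and piece, shifted sideways for legibility. Skeletal muscle markers lie at 2925 to 23720 CPM in the KO pieces and at 17.3 to 38.2 CPM in the KO+NM1 pieces, white adipocyte markers lie the other way round, and B and plasma cell markers reach 6265 CPM in KO+NM1 piece 01.

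Trp53 (ENSMUSG00000059552, GRCm38 chr11:69580359-69591873, plus strand), which encodes the p53 transcription factor, was at 247, 226 and 216 CPM in KO pieces 01 to 03. It was at 168 CPM in KO+NM1 piece 01 and at 66.8, 51.3 and 77.9 CPM in pieces 02 to 04. Every KO piece was above every KO+NM1 piece, and KO+NM1 piece 01 was closer to the KO pieces than to the other pieces of its own group. The means were 229.8 ± 16.1 CPM in KO (SD, n = 3) and 91.1 ± 52.7 CPM in KO+NM1 (SD, n = 4), a log2 fold change of 1.33 ± 0.40 (SE, 95% interval 0.40 to 2.27, adjusted p = 0.0272, edgeR), and the two-sided exact permutation test over the 35 splits of the pieces gave p = 0.0571. Without KO+NM1 piece 01 the log2 fold change was 1.69 (adjusted p = 9.04e-05, edgeR), whereas leaving out any 1 of the other libraries ended the call, with adjusted p from 0.0509 without KO+NM1 piece 03 to 0.0995 without KO piece 01. The processed pseudogene Trp53-ps held 0 counts in every library.

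Mdm2 (ENSMUSG00000020184, chr10:117688875-117710758, minus strand), which both degrades p53 and is switched on by it, was at 93.3, 83.2 and 99.3 CPM in the KO pieces and at 69.5, 43.5, 43.7 and 39.9 CPM in the KO+NM1 pieces. The groups did not overlap, and KO+NM1 piece 01 was again the highest of its group. The means of 91.9 ± 8.16 and 49.1 ± 13.7 CPM (SD, n = 3 and 4) differed by a log2 fold change of 0.90 ± 0.22 (SE, adjusted p = 0.012, edgeR; exact permutation p = 0.0571). Without KO+NM1 piece 01 the log2 fold change was 0.99 (adjusted p = 0.000124, edgeR), whereas the adjusted p was 0.0612 without KO piece 01 and 0.0715 without KO piece 03.

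Ccng1 (ENSMUSG00000020326, chr11:40748552-40755311, minus strand) encodes cyclin G1, a p53 target that recruits a phosphatase to Mdm2. It was at 120.1, 185 and 174 CPM in the KO pieces and at 74.0, 80.5, 105 and 83.3 CPM in the KO+NM1 pieces. Again every KO piece was the higher, although KO piece 01 was nearer to KO+NM1 piece 03 than to the other KO pieces. The means of 159.7 ± 34.8 and 85.7 ± 13.4 CPM gave a log2 fold change of 0.90 ± 0.20 (SE, adjusted p = 0.00893, edgeR), and the exact permutation p was 0.0286, the smallest that 3 against 4 pieces allow. Without KO piece 02 or 03 the adjusted p was 0.0705 and 0.0681.

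Cdkn1a (ENSMUSG00000023067, chr17:29090976-29100727, plus strand), which encodes p21, the CDK inhibitor that p53 switches on after DNA damage, was at 133, 169 and 130.3 CPM in the KO pieces. In the KO+NM1 pieces it was at 78.5, 44.8, 47.0 and 34.1 CPM. The groups did not overlap, with KO+NM1 piece 01 the nearest to KO. The means of 144 ± 21.8 and 51.1 ± 19.1 CPM were 2.82-fold apart, and the fitted log2 fold change was 1.5 ± 0.29 (SE, 95% interval 0.82 to 2.17, adjusted p = 0.00489, edgeR; exact permutation p = 0.0571). It passed without each library in turn. Of the exon bases of Cdkn1a 7.68% are shared with AC167363.2 on the opposite strand, a gene that is not in the count files.

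The promoter windows of Cdkn1a, Mdm2 and Ccng1, from 250 bases before to 50 bases after the start in RefSeq (GRCm38.p6), are shown because these members are p53 targets that were higher together with Trp53. Capitals mark matches to the p53 half-site consensus, searched by name in these windows.
Cdkn1a, chr17:29090729-29091028, plus strand: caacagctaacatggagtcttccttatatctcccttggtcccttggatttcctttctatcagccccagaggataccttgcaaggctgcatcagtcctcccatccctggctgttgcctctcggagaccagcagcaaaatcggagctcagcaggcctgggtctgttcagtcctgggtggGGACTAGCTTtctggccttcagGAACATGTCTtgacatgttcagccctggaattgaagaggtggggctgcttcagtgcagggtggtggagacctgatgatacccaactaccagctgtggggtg
Mdm2, chr10:117710709-117711008, minus strand: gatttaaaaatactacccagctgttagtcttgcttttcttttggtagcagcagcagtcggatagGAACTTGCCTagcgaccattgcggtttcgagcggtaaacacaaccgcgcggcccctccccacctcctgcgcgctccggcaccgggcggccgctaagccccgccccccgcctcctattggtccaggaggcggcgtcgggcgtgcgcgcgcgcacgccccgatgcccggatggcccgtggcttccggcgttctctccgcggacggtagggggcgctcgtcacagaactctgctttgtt
Ccng1, chr11:40755237-40755536, minus strand: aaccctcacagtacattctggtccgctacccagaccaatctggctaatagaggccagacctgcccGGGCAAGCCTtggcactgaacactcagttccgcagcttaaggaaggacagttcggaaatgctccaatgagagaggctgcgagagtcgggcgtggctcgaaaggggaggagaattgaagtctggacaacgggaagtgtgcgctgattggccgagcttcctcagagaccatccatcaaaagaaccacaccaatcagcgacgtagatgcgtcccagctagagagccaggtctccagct
The upstream window of Cdkn1a held 2 half-sites, and the windows of Mdm2 and Ccng1 held 1 each. Of all 32851 windows of this length, 8.36% held at least 1. Windows of Trp53 and Cdkn2d also held 1 half-site each, while those of Cdkn1b, Cdkn2a, Cdkn2b and Cdkn2c and the downstream window of Cdkn1a held none. Among the 10 genes 9 had such a window, and Cdkn1c is named only. A match describes the letters and is not a measured binding site.

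Cdkn2a (ENSMUSG00000044303, chr4:89274471-89294653, minus strand), from which p16 and ARF are made by separate first exons, showed the largest difference of the 10 genes. It was at 330.4, 206 and 243 CPM in KO pieces 01 to 03. KO+NM1 piece 01 held 12.6 CPM, and pieces 02 to 04 held 1.14, 2.92 and 5.30 CPM, down to 28 counts in 1 library. The lowest KO piece was thus far above the highest KO+NM1 piece. The means of 259.9 ± 63.8 CPM in KO and 5.49 ± 5.05 CPM in KO+NM1 stood in a ratio of 47.3, and the log2 fold change was 5.56 ± 0.70 (SE, 95% interval 3.91 to 7.21, adjusted p = 0.00167, edgeR; exact permutation p = 0.0286). Without KO+NM1 piece 01 it was 6.25 (adjusted p = 6.22e-05), and leaving out any other library gave 5.21 to 5.59 and kept the call. Counts per gene do not separate the transcripts of p16 from those of ARF.

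Cdkn2b (ENSMUSG00000073802, chr4:89306299-89311039, minus strand) encodes p15 and lies beside Cdkn2a on the same chromosome. Its level was 48.9, 30.1 and 35.1 CPM in the KO pieces against 12.9, 8.95, 8.89 and 6.5 CPM in the KO+NM1 pieces, with no overlap. The log2 fold change was 2.03 ± 0.28 (SE, 95% interval 1.37 to 2.69, adjusted p = 0.0015, edgeR; exact permutation p = 0.0286) between means of 38.0 ± 9.74 and 9.30 ± 2.64 CPM. Cdkn2a and Cdkn2b alone among the 10 genes kept their calls under all 18 alternative settings tried. KO piece 01 was the highest piece for both genes and KO+NM1 piece 01 the highest KO+NM1 piece for both.

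The promoter windows of both Cdkn2a starts are shown because this gene had the largest difference and because its transcripts begin at separate places. Capitals mark an E2F site, spelled TTTCCCGC or TTTGGCGC and searched on both strands.
Cdkn2a upstream start, chr4:89294570-89294869, minus strand: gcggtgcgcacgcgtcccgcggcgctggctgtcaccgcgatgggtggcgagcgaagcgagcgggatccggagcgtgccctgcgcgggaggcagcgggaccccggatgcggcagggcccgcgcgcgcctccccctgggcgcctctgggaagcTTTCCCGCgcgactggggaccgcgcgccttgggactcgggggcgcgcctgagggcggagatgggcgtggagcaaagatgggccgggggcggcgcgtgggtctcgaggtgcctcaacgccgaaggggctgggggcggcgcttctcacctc
Cdkn2a downstream start, chr4:89282143-89282442, minus strand: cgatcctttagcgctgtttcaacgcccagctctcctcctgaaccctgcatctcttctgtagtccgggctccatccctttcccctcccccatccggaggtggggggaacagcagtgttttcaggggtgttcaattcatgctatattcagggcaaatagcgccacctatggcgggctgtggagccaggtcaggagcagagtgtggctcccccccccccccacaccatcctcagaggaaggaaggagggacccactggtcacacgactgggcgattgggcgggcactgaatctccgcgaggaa
The upstream window, at the first exon of ARF, held 1 E2F site, and 1.56% of all 32851 windows held one. No other window of the members held this motif. The letters GGGCGG, a GC box, did not overlap the E2F site and occurred on either strand 3 times in the upstream window and 1 time in the downstream window, against at least 1 time in 35.7% of all windows.

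Cdkn2c and Cdkn2d, the other INK4 genes, did not follow Cdkn2a and Cdkn2b. Cdkn2c (ENSMUSG00000028551, chr4:109660876-109667189, minus strand), which encodes p18, was at 33, 36.1 and 38.3 CPM in the KO pieces. The KO+NM1 pieces held 41.6, 269.7, 234 and 196 CPM, so that KO+NM1 piece 01 lay just above the KO pieces and far below the other pieces of its group. The means of 35.8 ± 2.65 and 185 ± 100.4 CPM gave a log2 fold change of -2.37 ± 0.54 (SE, 95% interval -3.65 to -1.09, adjusted p = 0.014, edgeR; exact permutation p = 0.0571). Without KO+NM1 piece 01 it was -2.83 (adjusted p = 9.21e-06), and without KO piece 01 the adjusted p was 0.0515.

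Cdkn2d (ENSMUSG00000096472, chr9:21288410-21291407, minus strand), which encodes p19 of the INK4 family, was at 21.7, 25.6 and 23.7 CPM in the KO pieces and at 35.7, 16.6, 13.8 and 12.9 CPM in the KO+NM1 pieces. Here the groups overlapped, since KO+NM1 piece 01 was above every KO piece and the other KO+NM1 pieces were below. The log2 fold change was 0.26 ± 0.38 (SE, 95% interval -0.63 to 1.15, adjusted p = 0.594, edgeR; exact permutation p = 0.371). Without KO+NM1 piece 01 it passed, at 0.59 (adjusted p = 0.00904).

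Cdkn1b and Cdkn1c, the CIP/KIP genes other than Cdkn1a, were lower in KO. Cdkn1b (ENSMUSG00000003031, chr6:134920401-134925513, plus strand), which encodes p27, was at 51.2, 63.3 and 60.2 CPM in the KO pieces and at 145, 108, 96.0 and 109.8 CPM in the KO+NM1 pieces, with no overlap. Its means of 58.2 ± 6.28 and 115 ± 21.1 CPM gave a log2 fold change of -0.98 ± 0.17 (SE, 95% interval -1.39 to -0.57, adjusted p = 0.00412, edgeR; exact permutation p = 0.0286), and the call held without each library in turn. Unlike Cdkn2c, Cdkn1b was at its highest in KO+NM1 piece 01.

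Cdkn1c (ENSMUSG00000037664, chr7:143458339-143461050, minus strand), the imprinted gene of p57, was at 15.9, 16.7 and 22.5 CPM in the KO pieces. The KO+NM1 pieces held 19.7, 76.2, 61.7 and 68.9 CPM, and the first of these lay among the KO pieces, so the groups overlapped. The log2 fold change was -1.62 ± 0.43 (SE, 95% interval -2.64 to -0.61, adjusted p = 0.0216, edgeR; exact permutation p = 0.0857) between means of 18.4 ± 3.57 and 56.6 ± 25.3 CPM. It was -2.03 without KO+NM1 piece 01 (adjusted p = 4.31e-05), but the adjusted p was 0.068 and 0.0602 without KO piece 01 or 02, 0.0533 and 0.0512 without KO+NM1 piece 02 or 04 and 0.0516 with limma voom. The antisense gene Gm44732, which is not in the count files, shares 30.7% of the exon bases of Cdkn1c, and without a stated strand option its reads and those of Cdkn1c cannot be told apart.

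**Figure D2:**
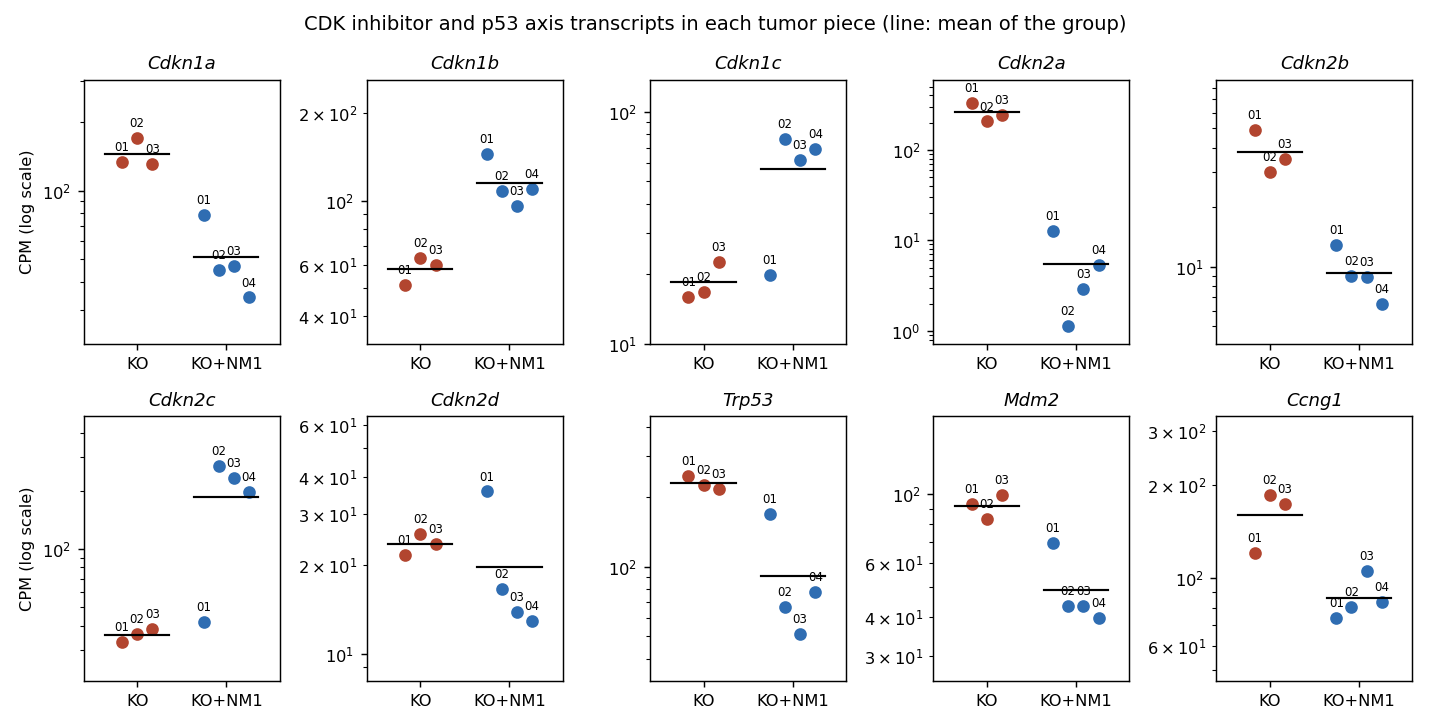
Level of each of the 10 genes in each piece (CPM, log scale with its own range in each panel), labelled by piece number, with a line at the group mean. The 3 KO pieces lie above all 4 KO+NM1 pieces for 6 genes and below them for Cdkn1b and Cdkn2c, and KO+NM1 piece 01 lies among or next to the KO pieces for Cdkn1c, Cdkn2c, Trp53 and Mdm2.

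**Figure D3:**
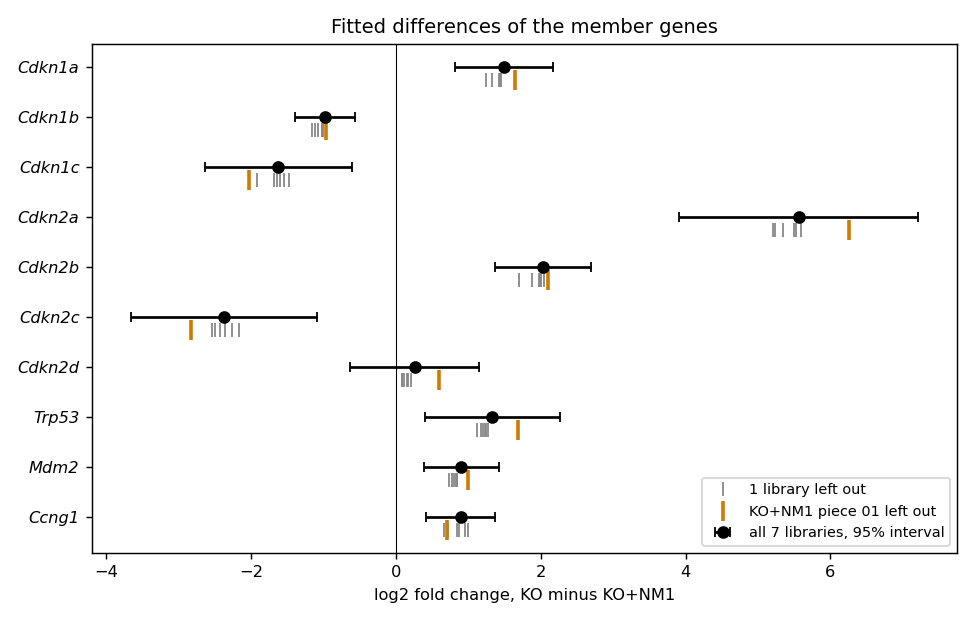
Log2 fold change of the 10 genes, KO minus KO+NM1, with its 95% interval (black), and the value with 1 library left out (grey ticks; orange for KO+NM1 piece 01). Intervals of 9 genes lie on 1 side of 0, that of Cdkn2d spans 0, and leaving out KO+NM1 piece 01 moves Cdkn2a from 5.56 to 6.25 and Cdkn2c from -2.37 to -2.83.

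Counted by pieces, 6 of the 10 genes had every KO piece above every KO+NM1 piece, 2 had every KO piece below and 2 overlapped. Among all genes tested 30.5% and 26.4% were without overlap in these directions. The members varied together across the 7 libraries in both directions. Pearson's r of log2 CPM was 0.99 between Cdkn1c and Cdkn2c, -0.98 between Cdkn2c and Trp53 and 0.95 between Cdkn2a and Cdkn2b, while it was -0.08 between Cdkn1b and Cdkn2d. These values describe 7 libraries that share a group difference, and so many genes lie near them that 17.8% of the 12282 genes with a mean of at least 5 CPM had r above 0.9 with Trp53 and 17.2% with Cdkn1a. Closest to Trp53 were Soat1 (r = 0.998), Mcmbp (0.9976) and Emd (0.9973), and closest to Cdkn1a were Scnm1 (0.9927), Trpc4ap (0.9913) and Ddx19b (0.9909).

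Levels of the genes were compared with each other per length, as CPM per kb of exon. In KO, Cdkn2a came first at 222 ± 54.4 CPM per kb (SD, n = 3), followed by Trp53 at 56.8 ± 3.97, Ccng1 at 45.5 ± 9.91, Cdkn1a at 40.6 ± 6.13, Cdkn2b at 27.4 ± 7.0 and Mdm2 at 18.1 ± 1.61 CPM per kb. The lowest levels were those of Cdkn2d, Cdkn2c, Cdkn1b and Cdkn1c, from 15.0 ± 1.24 down to 9.0 ± 1.75 CPM per kb. Ccng1 and Cdkn1a overlapped in their pieces, as did Cdkn2d with Cdkn2c and Cdkn2c with Cdkn1b, and the other neighbours in this order did not. In KO+NM1 the order began with Cdkn2c at 69.0 ± 37.4 CPM per kb (SD, n = 4), then Cdkn1c at 27.8 ± 12.4, Cdkn1b at 25.2 ± 4.63, Ccng1 at 24.4 ± 3.83 and Trp53 at 22.5 ± 13.0. It went on with Cdkn1a, Cdkn2d, Mdm2 and Cdkn2b, from 14.4 ± 5.38 to 6.69 ± 1.90 CPM per kb, and ended with Cdkn2a at 4.69 ± 4.31 CPM per kb, and here every pair of neighbours overlapped. Cdkn2a was thus first in KO and last in KO+NM1. With the longest transcript as the length, Cdkn1a moved ahead of Ccng1 in KO, Mdm2 moved ahead of Cdkn2b, and Cdkn2a kept both places.

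The 7 inhibitors together summed to 399.7, 297 and 323 CPM per kb in the KO pieces and to 122, 192, 169 and 158 CPM per kb in the KO+NM1 pieces (exact permutation p = 0.0286). Cdkn2a took 70.5%, 59.2% and 64.2% of this sum in the KO pieces, whereas its share was 8.84% in KO+NM1 piece 01 and 0.506%, 1.47% and 2.86% in pieces 02 to 04. Cdkn2c took 3.08%, 4.52% and 4.42% in KO, 12.7% in KO+NM1 piece 01 and 52.3%, 51.4% and 46.3% in the other KO+NM1 pieces. The share of Cdkn1b was 3.86% ± 0.954 in KO and 16.6% ± 6.53 in KO+NM1, and that of Cdkn1c was 2.71% ± 0.733 and 16.7% ± 6.0 (SD, n = 3 and 4). The share of Cdkn1a was 12.3% ± 3.42 and 9.65% ± 5.71, although its level was higher in KO. Exact permutation p-values of the 7 shares ran from 0.0286 to 0.486, and adjusted over the 7 none was below 0.1, so the make-up is given as a description. In KO+NM1 piece 01 no inhibitor took more than 26.1%, the share of Cdkn1b.

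**Figure D4:**
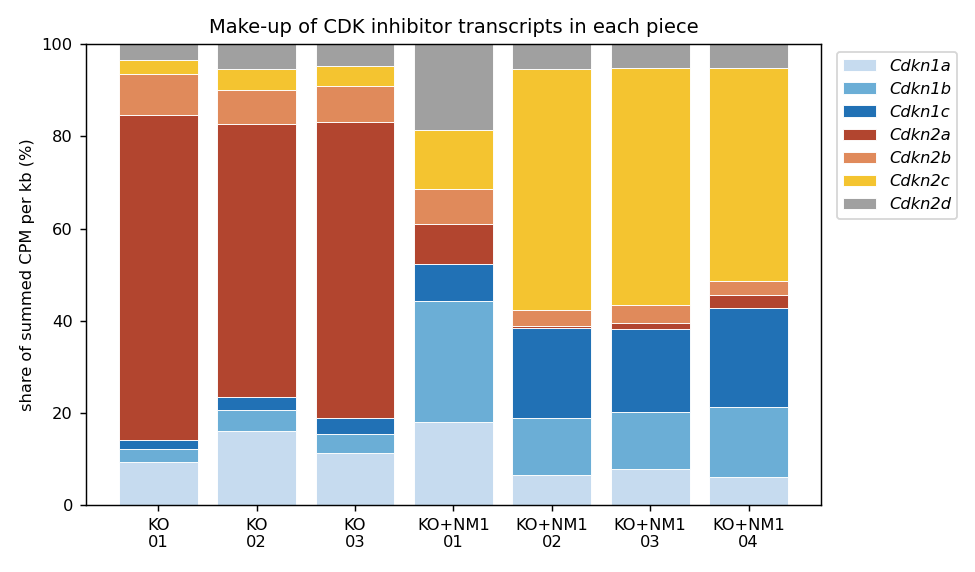
Share of each of the 7 CDK inhibitor genes in their summed CPM per kb (%, stacked to 100.0%) in each piece. Cdkn2a makes up 59.2% to 70.5% in the KO pieces and at most 8.84% in the KO+NM1 pieces, and Cdkn2c makes up 46.3% to 52.3% in KO+NM1 pieces 02 to 04 but 12.7% in piece 01.

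Targets of p53 outside the members were looked at in 3 lists, and log2 fold changes below are KO minus KO+NM1, with their SE, in log2 units. Of 54 such genes tested, 15 were higher in KO, 16 were lower and 23 did not pass. As shares (27.8% and 29.6%) these lie near the 25.7% and 24.5% of all genes tested, which also stand beside the counts of each list below from all 7 libraries. Their median log2 fold change was 0.13, and that of all genes tested was -0.0017. Higher levels of Trp53, Cdkn1a, Mdm2 and Ccng1 therefore stood beside p53 target genes that were higher about as often as lower.

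Among 19 tested targets for arrest and feedback, members included, 6 were higher and 4 lower, with a median log2 fold change of 0.12 (Rprm was too low to test). The counts were 7 higher and 6 lower without KO+NM1 piece 01. Gtse1, which escorts p53 out of the nucleus and peaks in G2, was at 66.9 ± 7.88 CPM in KO and 2.44 ± 2.11 CPM in KO+NM1, a log2 fold change of 4.77 ± 0.58 (SE, adjusted p = 0.00133, edgeR), and 5.46 without KO+NM1 piece 01. Zfp365 was higher by 2.82 ± 0.46 log2 units (adjusted p = 0.00293). Lower were Phlda3, an inhibitor of Akt, at -2.14 ± 0.53 log2 units (adjusted p = 0.0182), and Btg2, an antiproliferative gene, at -1.93 ± 0.39 log2 units (adjusted p = 0.00808). For Phlda3 the groups overlapped, and its adjusted p was 0.0653 without KO piece 01 and 0.0558 without KO piece 03.

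The apoptosis targets and those of repair and metabolism had medians on opposite sides of 0, a difference between lists that was not tested. Of 18 apoptosis genes 8 were higher and 3 lower, with a median of 0.85. The counts were 12 higher and 4 lower without KO+NM1 piece 01, while 5 were higher without any 1 of the KO pieces and 1 was lower without KO piece 01 or KO+NM1 piece 02 or 04. Eda2r, a receptor of the TNF receptor family, was at 2.67, 35.3 and 29.7 CPM in the KO pieces against 0.975 ± 0.206 CPM in KO+NM1 (log2 fold change 4.53 ± 0.75, adjusted p = 0.0037, edgeR), so KO piece 01, the KO piece with the least muscle marker RNA, also held the least Eda2r, and without KO piece 02 the log2 fold change was 3.93. Dusp5, a phosphatase of ERK, was higher by 3.11 ± 0.92 log2 units (adjusted p = 0.0304), which became 0.0612 to 0.102 without any 1 library except KO+NM1 piece 01. Without that piece, which held 26.3 CPM against 2.32 to 3.25 CPM in the rest of its group, Dusp5 was higher by 4.63 log2 units (adjusted p = 2.8e-05). Bbc3, which encodes the BH3-only killer protein PUMA, was lower, at 11.7 ± 1.17 CPM against 23.6 ± 2.81 CPM (log2 fold change -1.0 ± 0.17, adjusted p = 0.00345). Ei24 was lower, at -0.68 ± 0.20 log2 units (adjusted p = 0.0305), with 0.0655 to 0.0726 without KO piece 01 or 03 or KO+NM1 piece 02, 03 or 04.

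Of 20 targets for repair and metabolism 4 were higher and 9 lower, with a median of -0.45, and 2 were higher without KO piece 01. Gls2, a mitochondrial glutaminase, was higher by 2.62 ± 0.36 log2 units (SE, adjusted p = 0.00157, edgeR). Ak1, an adenylate kinase abundant in muscle, was higher by 1.64 ± 0.52 log2 units (adjusted p = 0.0339), with 0.054 to 0.125 without any 1 KO piece or without KO+NM1 piece 02 or 04. Lower were Ephx1, an epoxide hydrolase, at 16.1 ± 3.11 CPM against 117 ± 18.6 CPM (log2 fold change -2.86 ± 0.19, adjusted p = 0.000262), and Acad11, an acyl-CoA dehydrogenase, at -2.86 ± 0.52 log2 units (adjusted p = 0.00627).

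Of 27 regulators and cofactors of p53 10 were higher (37.0%), 4 were lower (14.8%) and 13 did not pass, with a median of 0.29. The number lower was 2 without any 1 of the KO pieces, 7 without KO+NM1 piece 01 and 1 with library size alone as the scaling. Chek1, a kinase of the replication checkpoint, was at 28.9 ± 2.49 CPM in KO and 1.12 ± 0.685 CPM in KO+NM1 (log2 fold change 4.68 ± 0.45, adjusted p = 0.000643, edgeR), and Aurka, a mitotic kinase, was higher by 3.98 ± 0.19 log2 units (adjusted p = 0.000187). The genes with the largest falls encode ASPP proteins, partners that direct p53 to its apoptosis targets. Trp53bp2 was lower, at -1.04 ± 0.26 log2 units (adjusted p = 0.0162) and Ppp1r13b at -0.90 ± 0.26 log2 units (adjusted p = 0.0262). For Ppp1r13b it was 0.0577, 0.0596 and 0.0509 when KO piece 01, 02 or 03 was left out.

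The partners and targets of the inhibitors were mostly higher in KO. Of 11 cyclins, CDKs and other proteins that the inhibitors bind (G1 cyclins and CDKs, Ccna2, Cdk1 and the replication clamp Pcna) 9 were higher and 2 lower, with a median log2 fold change of 2.41, and the same counts were found without KO+NM1 piece 01. Ccna2, the cyclin of S and G2 phase, was at 193 ± 6.35 CPM in KO and 3.37 ± 3.06 CPM in KO+NM1 (5.83 ± 0.59, SE, adjusted p = 0.000909, edgeR), and Cdk1, its later partner, at 205 ± 21.9 against 5.47 ± 1.71 CPM (5.22 ± 0.24, adjusted p = 0.000187). Of the D-type cyclins, Ccnd2 and Ccnd3 were lower, at -1.26 ± 0.21 log2 units (adjusted p = 0.00312) and -0.64 ± 0.13 (adjusted p = 0.00723). Ccnd1, also a D-type cyclin of this list, went the other way and was higher by 3.56 ± 0.36 log2 units (adjusted p = 0.000685, edgeR). Of 11 pocket proteins and E2F factors 6 were higher and 1 was lower, with a median of 1.42. E2f8 and E2f7, the atypical E2Fs, were higher by 5.90 ± 0.74 log2 units (adjusted p = 0.00162) and 4.60 ± 0.24 (adjusted p = 0.000219), and Rb1, the retinoblastoma gene, was lower, at -0.96 ± 0.23 log2 units (adjusted p = 0.0139). Without KO+NM1 piece 01 the log2 fold change was 6.56 for Ccna2 and 7.02 for E2f8. In KO+NM1 pieces 02 to 04 E2f8 held 0.198 to 0.534 CPM, down to 4 counts in 1 library, which is near the floor.

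Genes that control the amount of CIP/KIP proteins were higher for 14 of 22 (63.6%) and lower for 4 (18.2%), with a median of 0.68. Dtl and Cdc20, substrate receptors of the ubiquitin ligases that degrade p21 and others, were higher by 4.42 ± 0.39 log2 units (SE, adjusted p = 0.000517, edgeR) and 4.08 ± 0.58 (adjusted p = 0.00211), and Cdc20 by 4.72 log2 units without KO+NM1 piece 01. Foxo1, a transcription factor that switches on Cdkn1b, was lower, at -2.26 ± 0.24 log2 units (adjusted p = 0.000836). Other Foxo genes of this list did not follow it. Foxo3 was higher by 0.96 ± 0.15 log2 units (adjusted p = 0.00249, edgeR), and Foxo4 did not pass, at -0.51 ± 0.23 log2 units (adjusted p = 0.109, edgeR). Cebpa, which stabilizes p21 and is also a master factor of fat cells, was at 61.7 ± 7.79 CPM in KO against 970.3 ± 521 CPM (-3.98 ± 0.53, adjusted p = 0.00237), and it was 241 CPM in KO+NM1 piece 01, where white adipocyte markers were lowest of the group, and 948 to 1358 CPM in the others.

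The list on control of the INK4/ARF locus had 6 of 25 genes higher (24.0%) and 8 lower (32.0%), against 25.7% and 24.5% of all genes tested. Its median was -0.03. Without KO+NM1 piece 01 the counts were 10 higher and 9 lower, where 5957 and 5980 of all 16617 genes tested were called. Hmga2, a chromatin protein that restrains Cdkn2a in neural stem cells, was at 258, 126 and 174 CPM in the KO pieces and at 0.255, 0.407, 0.543 and 1.6 CPM in the KO+NM1 pieces. Its log2 fold change of 8.04 ± 0.59 (SE, adjusted p = 0.000415, edgeR) thus had the same sign as that of Cdkn2a, and it was 8.84 without KO+NM1 piece 04. Hmga1, a related chromatin protein, was higher by 4.02 ± 0.42 log2 units (adjusted p = 0.000829). Tbx3 and Tbx2, repressors of ARF, were lower, at -4.86 ± 0.44 log2 units (adjusted p = 0.000767) and -2.99 ± 0.39 (adjusted p = 0.00172), and their KO means were 2.03 ± 0.516 and 3.31 ± 0.614 CPM.

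**Figure D5:**
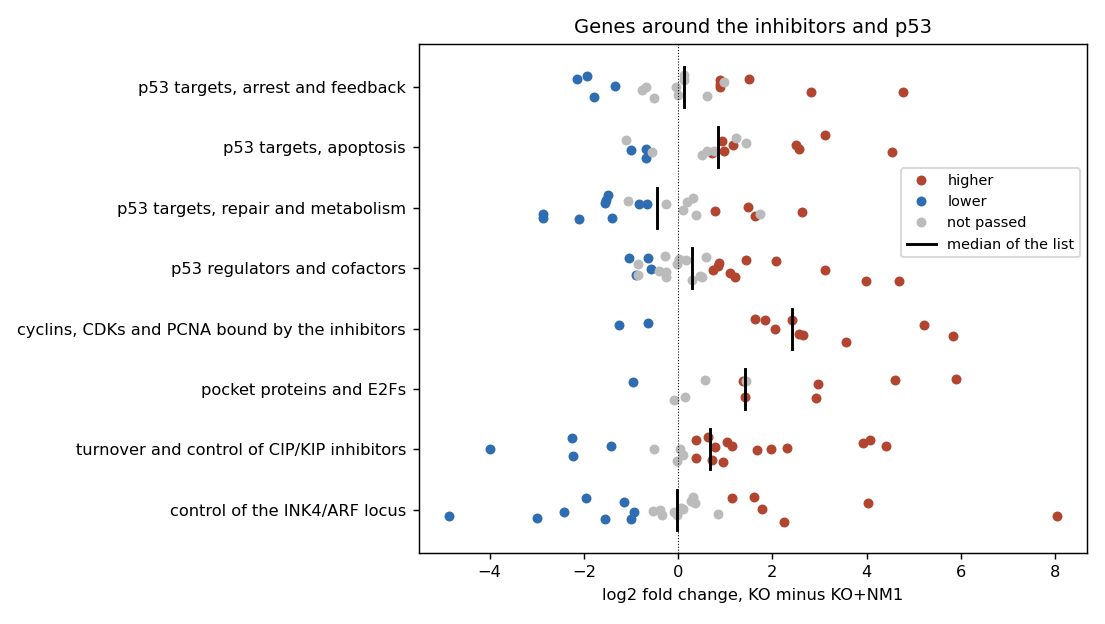
Log2 fold change, KO minus KO+NM1, of each tested gene (point) in 8 lists around the inhibitors and p53, coloured by call, with the median of each list (bar). Cyclins, CDKs and Pcna have a median of 2.41, p53 targets for repair and metabolism one of -0.45, and the 3 lists of p53 targets hold genes on both sides of 0.

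Proliferation markers differed between the same pieces. All 15 tested were higher in KO, with a median log2 fold change of 5.11, and their summed level was 3911, 3180 and 3233 CPM in the KO pieces, 392 CPM in KO+NM1 piece 01 and 107 to 142 CPM in the others. Mki67, which encodes the Ki-67 antigen of cycling cells, was at 395 ± 81.3 CPM in KO and 9.01 ± 7.67 CPM in KO+NM1, a log2 fold change of 5.45 ± 0.57 (SE, adjusted p = 0.000968, edgeR). Top2a and Bub1 were higher by 6.27 ± 0.68 log2 units (adjusted p = 0.00118) and 6.30 ± 0.73 (adjusted p = 0.00133), and Top2a by 7.02 log2 units without KO+NM1 piece 01. Bub1 was down to 2 counts in KO+NM1 piece 02 (0.0814 CPM, below the floor of 0.122 CPM), so the size of its fold change is uncertain. The KO pieces, with 206 CPM or more of Cdkn2a and 130.3 CPM or more of Cdkn1a, thus also held the most Mki67. This restates the group difference, and 30.5% of all genes tested had every KO piece above every KO+NM1 piece. The part of proliferation in the members' values was not tested.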

How the data were processed

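Total RNA of 3 KO and 4 KO+NM1 tumor pieces was sequenced (NEBNext Ultra II libraries, NextSeq platform). Reads were trimmed by the authors (Trimmomatic 0.36), mapped on GRCm38 (HISAT2 2.0.4), sorted (SAMtools 0.1.19) and assigned to genes (HTSeq), and the deposited values are raw counts without normalization. The annotation release and the strand option are not given in the sources used here. For their own comparison the methods name NASQAR with thresholds on the adjusted p and a 2-fold change.

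Symbols, exon lengths and positions came from GENCODE M21 (46005 of 46603 genes matched), promoters from RefSeq. In R 4.3.3, genes kept by filterByExpr of edgeR 4.0.16 (minimum count 10) were normalized by TMM and compared, KO minus KO+NM1, by the quasi-likelihood test with Benjamini-Hochberg adjustment over 16887 genes, called at an adjusted p under 0.05. The biological coefficient of variation was 46.7%. CPM are TMM-normalized, and single members and shares were also tested by two-sided exact permutation of log2 CPM (prior count 2) or of the share itself over 35 splits. Intervals are 95% intervals of the fit and the floor is 3 counts. Totals were 24088309 to 28326568 counts per library. The floor covers counting error only, whereas the intervals of the fit include the spread between pieces. Pairs of pieces of one group differed beyond sampling noise, so no library was a repeat.

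Named beside the 10 members are, per list, the 2 largest rises and falls among called genes with a mean of at least 1 CPM, for Trp53 and Cdkn1a the 3 genes with the highest correlation among those with a mean of at least 5 CPM, genes whose exons overlap those of a member, and Mki67. Ccnd1, Foxo3 and Foxo4 are given for contrast, outside this rule, and are not counted among the named list genes. The members, the lists of p53 targets (arrest and feedback, apoptosis, repair and metabolism), p53 regulators, cyclins, CDKs and PCNA bound by the inhibitors, pocket proteins and E2Fs, CIP/KIP control, INK4/ARF control and proliferation, and the marker lists were chosen with earlier results of these data known. Alternatives were other normalizations, filters and tests (DESeq2 1.42.0, limma 3.58.1 voom, glmTreat), a 2-fold threshold, the piece number as a block and each library left out. The steps were tested on simulated data.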

Additional observations from a re-analysis of the deposited data

Results flagged for a closer look

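KO+NM1 piece 01 lay far from the other pieces of its group for 6 of the 44 genes tested this way, 3 of them members. The gap between this piece and its nearest neighbour, as a part of the range of the 4 KO+NM1 pieces on the log2 CPM scale, was 0.843 for Cdkn1c, 0.83 for Cdkn2c, 0.836 for Mdm2, 0.863 for Dusp5, 0.866 for Ppp1r13b and 0.909 for Hmga1, against a critical value of 0.829 (Dixon). Chance alone marks about 1 in 20 such groups, and the genes are not independent, since they share the piece. In this piece Cdkn1c and Cdkn2c were below and Mdm2, Dusp5, Ppp1r13b and Hmga1 above the other KO+NM1 pieces. It was also the piece with the most B and plasma cell, macrophage and proliferation marker RNA and the least white adipocyte marker RNA of its group, at 6265, 2589, 392 and 4966 summed CPM, and the part of these in the 6 values was not tested.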

How the results depend on the processing

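No member and no named gene of the lists changed direction in any setting tried. Of 180 values of the 10 members under 18 alternatives each, 153 kept their direction and their side of the threshold, 25 lost the call and 2 gained it, both for Cdkn2d, without KO+NM1 piece 01 and without that piece and KO piece 02 together (adjusted p = 0.0304), an alternative chosen after seeing the data under which all 10 members passed. Of 591 values of 33 named list genes 551 kept both and 40 lost the call. Against a 2-fold change (glmTreat of edgeR), which asks for more than a difference from 0, 2 members were higher and 0 lower, and 1707 genes were higher and 2074 lower in place of 4345 and 4132. A 2-fold threshold on the main calls left 2882 genes higher. With 1 library left out, 3 to 7 members were higher and 1 to 3 lower, and 2910 to 5957 genes were higher and 3226 to 5980 lower. The lowest counts of members were those without KO piece 03 (3 higher) and KO piece 01 (1 lower).

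The piece numbers did not pair the samples (own-number correlations of the deviations of 0.0807, 0.117 and -0.0354). With the number as a replicate block, 2680 genes and 1 member were lower, and the adjusted p of Cdkn1c was 0.0772, of Cdkn2c 0.0762, of Eda2r 0.0614, of Trp53bp2 0.0612, of Ppp1r13b 0.064 and of Ei24 0.0958. Library size alone ended the calls of Ccnd3, Ei24 and Ppp1r13b, and upper-quartile scaling or keeping every gene with a count that of Ak1. Of the p53 regulators 0 were lower with the block and 1 with library size alone (4 in the report), and of the p53 apoptosis targets 1 was lower with either (3) and 5 were higher with the block (8). The median log2 fold change of all genes was -0.16 with upper-quartile scaling, -0.11 with every gene kept, -0.14 without a KO piece and 0.17 with library size alone. The members held 28 to 9914 counts per library, so that the spread between pieces (a biological coefficient of variation of 46.7%) was larger than the counting error, and 3 against 4 pieces allow no permutation p below 0.0286.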
